A study of Homo sapiens with 12 samples.

Results

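PTPN14-1 and PTPN14-2 are siRNAs aimed at the same transcript, and the comparison described here sets the 3 libraries of PTPN14-1 against the 3 libraries of PTPN14-2, paired by cell line. These are 6 of the 12 libraries of the series. The others are 3 with a non-targeting control siRNA and 3 with a LATS siRNA. Cells were A704 and CAKI-1, both renal cancer lines, and HK2, an immortalised line from normal kidney. Each was transfected with 25 nM siRNA from Ambion using Lipofectamine RNAimax, after 0.4 M cells had been plated, and polyA RNA was taken 48 h later for sequencing. Each line gave 1 library per siRNA, so the 3 lines are the replicates, and the labels do not say that libraries came from separate cultures. The p-values thus reflect how far the lines differ, with no separate measure of culture or library error. Titles and descriptions of the samples number the PTPN14 siRNAs in opposite ways in all 3 lines, and the title numbers are used. If the descriptions are right, each sign between the siRNAs turns round, and each value against control belongs to the other siRNA.

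PTPN14 encodes a non-receptor protein tyrosine phosphatase that binds YAP1. In the Hippo pathway the kinases LATS1 and LATS2 phosphorylate YAP1 and its relative TAZ, encoded by WWTR1, and hold them in the cytoplasm. In the nucleus these coactivators work with TEAD factors at genes such as CTGF, CYR61 and AMOTL2. An siRNA is loaded into an Argonaute protein, whose guide strand pairs along its full length with the intended transcript. The first bases of a guide, its seed, can also pair with short matches in the 3′ UTR of other transcripts, as the seed of a microRNA does. Reagents to 1 target are compared with each other for this reason. The bases of neither siRNA are in the labels or files used.

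The 6 libraries had an estimated 16.95 to 20.7 M reads each. Between 10862 and 11003 table entries exceeded FPKM 1 (fragments per kilobase of transcript, scaled to depth). The labels give epithelial as the cell type. KRT8, a keratin of simple epithelia, stood at FPKM 137 to 389, and PAX8, a factor of kidney epithelium, at 19.4 to 81.8. The epithelial cadherin CDH1 was 16.04 and 21.41 in A704 but at most 0.17 in HK2 and CAKI-1, and EPCAM was at most 0.51 in A704 and CAKI-1. Of 9 leukocyte markers, 2 exceeded FPKM 1 and the list summed to FPKM 18.0 to 181 with PTPN14-1 and 18.7 to 147 with PTPN14-2, while the defining PTPRC was at most 0.04. Of 13 loop and collecting duct markers, 4 exceeded FPKM 1, with sums of 16.6 to 40.2 and 23.7 to 58.3, and UMOD and AQP2 were listed at 0 with both siRNAs. KCNJ16, a potassium channel of that list, was lower with PTPN14-1, at 11.8, 5.41 and 27.25 in A704, HK2 and CAKI-1 against 19.68, 9.86 and 30.89 (-0.54, SE 0.12, limma adjusted p = 0.0109). The part of these markers in the results was not tested. Each library came from 1 cell line. In such bulk RNA, fewer cells that express a gene and less of its RNA per cell cannot be told apart.

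PTPN14 itself was measured first. Its FPKM with control siRNA was 19.1 (A704), 51.8 (HK2) and 18.5 (CAKI-1). With PTPN14-1 it was 4.09, 14.9 and 4.66 in the same order, and with PTPN14-2 it was 7.14, 19.5 and 5.78. The transcript was thus low in all 6 libraries and lower with PTPN14-1 in each line, at 21.4, 28.7 and 25.2% of control against 37.3, 37.5 and 31.2%. The difference between the siRNAs was -0.44 on the log2(FPKM + 1) scale (SE 0.11, 95% interval -0.67 to -0.20, n = 3 lines, limma adjusted p = 0.0213). The gene lies at chr1:214348696-214552449 on the minus strand of GRCh38. The call ended without A704 PTPN14-1 or PTPN14-2, HK2 PTPN14-2 or CAKI-1 PTPN14-1, with adjusted p from 0.0502 to 0.0980.

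Of the coactivator and kinase genes, LATS2 passed the test between the siRNAs. Its call ended without HK2 PTPN14-1 (limma adjusted p = 0.0565) or HK2 PTPN14-2 (0.0505). YAP1 had a difference of 0.15 (SE 0.08, adjusted p = 0.221) and WWTR1 of 0.17 (SE 0.11, adjusted p = 0.332). LATS1 had 0.17 (SE 0.11, adjusted p = 0.334). LATS2, a kinase gene that is also a YAP1 target, had a difference of 0.40 (SE 0.09, adjusted p = 0.0112) and was higher with PTPN14-1, at FPKM 14.9, 12.6 and 10.9 in A704, HK2 and CAKI-1 against 12.4, 8.27 and 7.94 with PTPN14-2.

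Limma called 1437 of 12276 genes different between the siRNAs at an adjusted p below 0.05, which is 11.7%. Of these, 678 were higher with PTPN14-1 (5.52%) and 759 were lower (6.18%). When each library was scaled to the same total, the split was 464 higher and 963 lower. Leaving out the PTPN14-2 library of A704, HK2 or CAKI-1 gave counts of 839, 833 and 742, and leaving out HK2 PTPN14-1 gave 876. With the 6 PTPN14 libraries alone it was 715.

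Most of these differences were small. The median was 0.40 among genes higher with PTPN14-1 and -0.42 among genes lower. A difference above 1.5-fold was reached by 109 of the higher genes (16.1%) and 155 of the lower (20.4%), and 17 and 12 genes passed 2-fold. Of the 1437 called genes, 1426 had 1 sign in all 3 lines (99.2%), beside 48.1% of all genes tested. The call itself favours such genes, as the 3 lines are its replicates. Calling genes in 2 lines and reading the left-out line gives a view that the call did not use. Of 566 genes called without A704, 522 had the same sign there (92.2%), beside 65.5% of uncalled genes. The counts were 305 of 319 for HK2 (95.6%, beside 65.6%) and 478 of 503 for CAKI-1 (where 69.9% of uncalled genes had it). Across all genes tested, the differences of 2 lines had a Pearson r of 0.40 for A704 and HK2, 0.50 for A704 and CAKI-1 and 0.56 for HK2 and CAKI-1. This is a description across genes, which are not independent replicates.

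The genes with the largest differences in each direction were read in every library. ETS1, a transcription factor of the ETS family that acts at growth factor and invasion genes, had the largest difference higher with PTPN14-1. Its FPKM was 46.2 (A704), 80.4 (HK2) and 38.5 (CAKI-1) with PTPN14-1, and 16.1, 19.1 and 10.3 with PTPN14-2. Control libraries lay between, at 30.3, 41.9 and 27.4. The difference was 1.76 (SE 0.12, n = 3 lines, limma adjusted p = 1.25e-05), and the 6 values of the siRNAs did not overlap. SLC2A3, the glucose transporter GLUT3, had the same order, with FPKM 80.96, 31.93 and 10.52 against 39.7, 11.87 and 4.21 and controls at 60.95, 19.98 and 8.31. Its difference was 1.17 (SE 0.08, adjusted p = 1.49e-05).

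GOLT1B, a Golgi membrane protein of vesicle transport, differed mainly through PTPN14-2. With PTPN14-1 its FPKM was 36.6 (A704), 34.6 (HK2) and 49.3 (CAKI-1), beside controls at 31.6, 27.7 and 44.4 (0.22, SE 0.09, adjusted p = 0.156). With PTPN14-2 it was 18.1, 12.8 and 22.1, so every PTPN14-2 library lay below every PTPN14-1 and control library. The difference was 1.16 (SE 0.09, adjusted p = 1.54e-05). TMEM164, a membrane protein, had 8.81, 17.3 and 12.3 with PTPN14-1 and 3.48, 6.28 and 5.81 with PTPN14-2, beside controls at 7.01, 16.3 and 13.2. MORF4L1, a chromodomain subunit of histone acetyltransferase complexes, had 111.0, 98.2 and 200.6 against 57.1, 37.8 and 97.2. HPRT1, the purine salvage enzyme, had 31.4, 104.8 and 65.0 against 13.0, 48.8 and 31.1.

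THBS1 encodes thrombospondin, a secreted matrix protein that activates TGF-beta and is a YAP1 target. Its FPKM was 75.0 (A704), 11.2 (HK2) and 104.3 (CAKI-1) with PTPN14-1, and 42.74, 2.85 and 52.99 with PTPN14-2. Controls were at 76.9, 4.68 and 73.6, so PTPN14-1 was above control in HK2 and CAKI-1 and PTPN14-2 was below control in each line, though neither passed against control (adjusted p = 0.0931 and 0.106). The difference was 1.14 (SE 0.17, adjusted p = 0.00167). The rest of the 15 largest were CD99, IL6, IGSF3, PLAUR, ISG15, AP3M1, SPRYD3 and TMEM265, with differences from 1.05 (TMEM265) to 1.27 (CD99). CD99, an adhesion glycoprotein of the pseudoautosomal region, stands on 2 entries of the table, so its value is uncertain.

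SUMF1 had the largest difference lower with PTPN14-1. It encodes the enzyme that makes the active-site formylglycine of sulfatases. Its FPKM was 9.09 (A704), 1.72 (HK2) and 6.07 (CAKI-1) with PTPN14-1. With PTPN14-2 it was 20.7, 8.60 and 21.2, near the controls at 18.3, 8.37 and 21.7. The difference was -1.53 (SE 0.15, n = 3 lines, adjusted p = 7.66e-05). RMND5A, a catalytic RING subunit of the CTLH ubiquitin ligase, had 3.21, 5.90 and 3.58 with PTPN14-1, 9.93, 17.3 and 11.7 with PTPN14-2 and 8.53, 15.3 and 8.08 with control siRNA. Its difference was -1.42 (SE 0.09, adjusted p = 1.07e-05), with the lines between -1.47 and -1.38.

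OSTC, a subunit of the oligosaccharyltransferase that N-glycosylates new proteins, was at 29.5, 30.2 and 65.5 with PTPN14-1 and 62.3, 59.3 and 139.4 with PTPN14-2. Controls were at 72.9, 79.1 and 173.3. Its difference was -1.03 (SE 0.08, adjusted p = 1.54e-05). PABPC1, the cytoplasmic poly(A)-binding protein, was at 99.5, 96.4 and 119.9 against 158.2, 345.6 and 382.8, a difference of -1.39 (SE 0.20, adjusted p = 0.00186) that was smaller in A704 (-0.66) than in HK2 (-1.83) or CAKI-1 (-1.67). SLC25A15, the mitochondrial ornithine carrier, was at 3.47, 2.71 and 4.04 against 8.12, 6.44 and 11, and LIPA, lysosomal acid lipase, at 21.58, 14.97 and 16.28 against 39.27, 33.53 and 40.08. The others among the 15 were FNDC3A, KCTD3, GOLGA4, ZBTB18, GPN1, ADAMTS9, RBM47, ACMSD and ARHGAP19, between -1.25 (FNDC3A) and -0.97 (ACMSD and ARHGAP19).

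Of these 30 genes, 28 were called whichever of the 12 libraries was left out. For IL6 the call ended without the PTPN14-2 library of A704 (0.0806) or of CAKI-1 (0.0918), both adjusted p. For ISG15 it ended without any 1 PTPN14-2 library, the adjusted p being 0.119 at most.

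**Figure D1:**
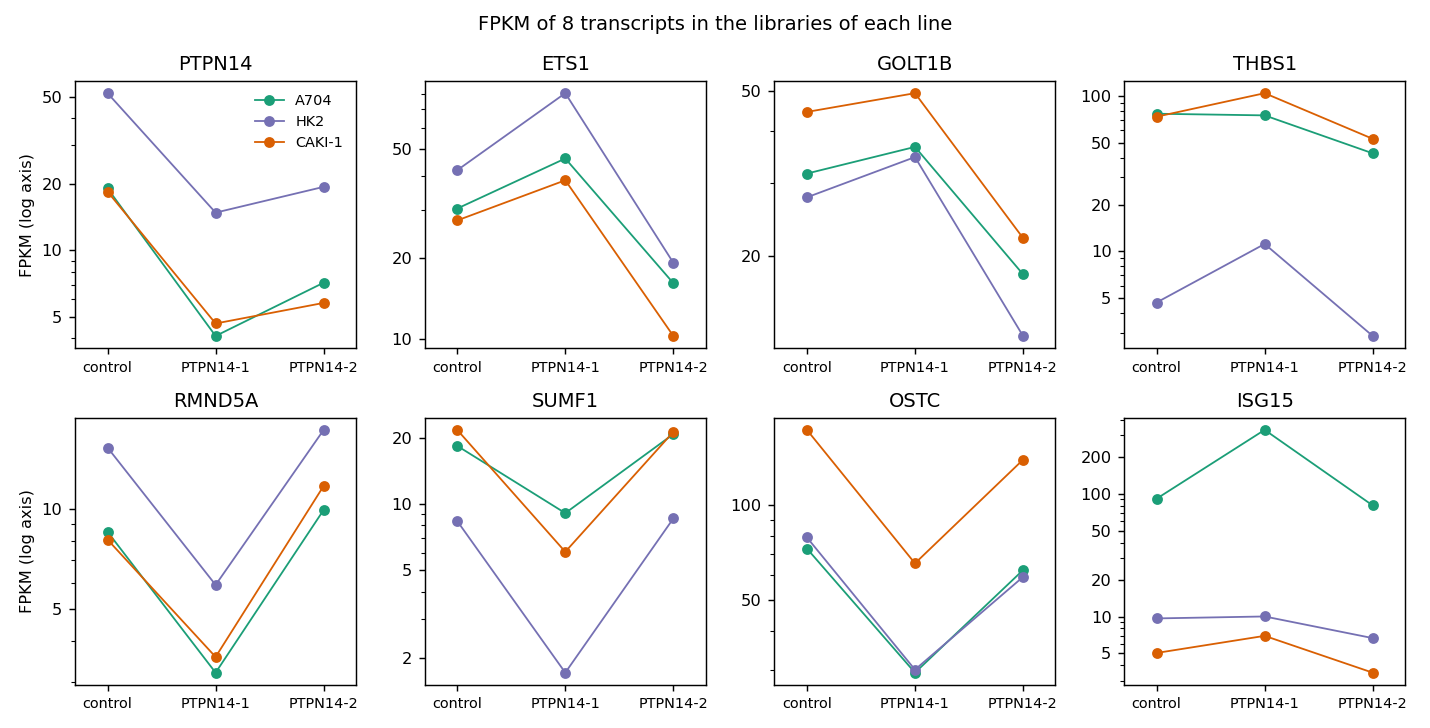
FPKM (log axis) of 8 transcripts with control, PTPN14-1 and PTPN14-2 siRNA, with 1 point per library and 1 line of colour per cell line. PTPN14 is low with both siRNAs, GOLT1B is low with PTPN14-2, RMND5A, SUMF1 and OSTC are lowest with PTPN14-1, and ISG15 is highest in A704 with PTPN14-1 at 330.8.

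**Figure D2:**
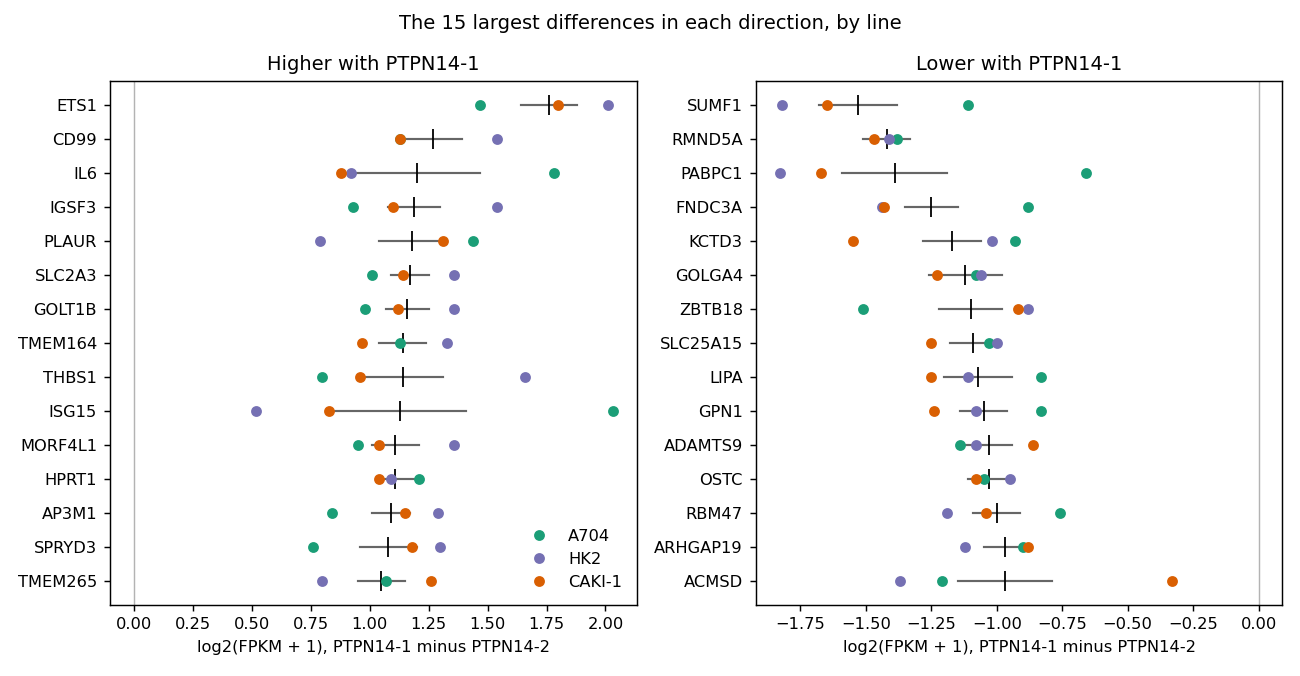
Difference between the siRNAs (PTPN14-1 minus PTPN14-2, log2(FPKM + 1)) for the 15 largest genes in each direction. Coloured points are the 3 lines, black ticks the fitted difference and grey bars 1 SE on each side. The lines of RMND5A lie within -1.47 and -1.38, and ISG15 spans 0.52 in HK2 to 2.03 in A704.

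Against control, PTPN14-1 had more called genes than PTPN14-2. Both comparisons with control use the same 3 control libraries, so their values are only set side by side. With PTPN14-1, 720 genes passed against control (5.87%), 294 that rose (2.39%) and 426 that fell (3.47%). With PTPN14-2, 166 passed (1.35%), 55 that rose (0.448%) and 111 that fell (0.904%). Among the 678 genes higher with PTPN14-1, 144 rose with PTPN14-1 alone (21.2%), 85 fell with PTPN14-2 alone (12.5%) and 443 passed with neither (65.3%). Another 6 rose with PTPN14-1 and fell with PTPN14-2, among them AP3M1, ETS1, IGSF3, SLC2A3 and TMEM265. AP3M1, a subunit of the adaptor complex AP-3 of lysosome transport, was at 0.38 (SE 0.08) with PTPN14-1 and -0.71 (SE 0.08) with PTPN14-2 against control.

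Among the 759 genes lower with PTPN14-1, 310 fell with PTPN14-1 alone (40.8%), 20 rose with PTPN14-2 alone (2.64%) and 422 passed with neither (55.6%). COL8A1, EPHA4, IQCG, ITGB8 and RBM47 fell with PTPN14-1 and rose with PTPN14-2. ITGB8, an integrin subunit that activates latent TGF-beta, was at FPKM 21.3, 6.42 and 14.1 in A704, HK2 and CAKI-1 with PTPN14-1. It was at 45.3, 13.0 and 27.1 with PTPN14-2 and 32.7, 7.47 and 18.6 with control siRNA, so the controls lay between in each line. Its difference was -0.96 (SE 0.10, adjusted p = 1.43e-04). CLDND1 and PTPN14 were the pair that fell with both siRNAs and yet differed between them. CLDND1 and IQCG were named after their values were seen.

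Short sequences in the 3′ UTR were then compared with the differences, since a microRNA-like match would lie there. For each 7-mer held by at least 150 of the 11488 tested genes with an annotated 3′ UTR (GENCODE 29, longest 3′ UTR per gene, transcript strand searched), the median difference of genes that hold it was set beside that of genes that lack it. There were 14996 such 7-mers. Members were chosen from these same values, so the ranks are a description with no test. The 7-mer with the highest value over the 3 lines was ACGATGT, held by 284 genes (2.47% of 3′ UTRs). The 10 lowest 7-mers over the 3 lines all held the 5 bases GAACG, as did 3, 6 and 8 of the 10 lowest of A704, HK2 and CAKI-1 taken alone. These bases stand in 2478 genes (21.6%) and in 36 of the ranked 7-mers. The windows below come from GENCODE 29 transcripts on GRCh38, 5′ to 3′, with ACGATGT or GAACG in capitals.

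Genes higher with PTPN14-1 are shown with the window in their 3′ UTR. Of the 14 largest with a 3′ UTR, 6 hold ACGATGT, beside 2.47% of all 3′ UTRs. GAACG is held by 2 of the 14, THBS1 and IGSF3, beside 21.6%. In 5 of the 6 with ACGATGT the copy is longer by a base on at least 1 side, as TACGATGT or ACGATGTA.
GOLT1B, chr12:21517291-21517313, plus strand: tttgacttACGATGTatctgtga
TMEM164, chrX:110173618-110173640, plus strand: ttccccctACGATGTctccttga
THBS1, chr15:39596368-39596390, plus strand: aatgctttACGATGTaaaatatt
MORF4L1, chr15:78897131-78897153, plus strand: ttgtacaaACGATGTgctttgaa
AP3M1, chr10:74123748-74123770, minus strand: gtgtcattACGATGTatcactat
SPRYD3, chr12:53064655-53064677, minus strand: cccaccctACGATGTatgaaatg

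Genes lower with PTPN14-1 are shown likewise. Of the 15 largest, 12 hold GAACG in the 3′ UTR, beside 21.6% of all 3′ UTRs. ACGATGT is held by 0 of the 15, which says little, as 2.47% of all 3′ UTRs hold it. Both sequences were picked from these same differences, so the counts are a description with no test. Windows of 8 of the 12 are printed, and those of ARHGAP19, ZBTB18, LIPA and RBM47 are left out for length. RMND5A has 4 copies, SUMF1 has 3 and GPN1 has 2, and the first is shown.
RMND5A, chr2:86773464-86773484, plus strand: tcagaagaGAACGttccatat
SUMF1, chr3:4362059-4362079, minus strand: agaactttGAACGatcccatg
OSTC, chr4:108667779-108667799, plus strand: agatgtatGAACGgagcagaa
ADAMTS9, chr3:64516465-64516485, minus strand: aaagggagGAACGgaaggaca
FNDC3A, chr13:49208863-49208883, plus strand: tgaaaaaaGAACGtatttttt
KCTD3, chr1:215621558-215621578, plus strand: gagcaaaaGAACGtttttgta
GOLGA4, chr3:37366384-37366404, plus strand: tttttaaaGAACGgcttacct
GPN1, chr2:27650523-27650543, plus strand: aatcaaaaGAACGtagtctcc

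The intended target holds both sequences, in a transcript of more than 12258 bases. Copies that would be found by its length alone were not counted. In the PTPN14 transcript, ACGATGT stands once in the coding region and once in the 3′ UTR, and GAACG stands 6 times, of which 2 are in the coding region. The coding copies that carry longer forms are shown, where the GAACG copy reads GAACGGA, the 7-mer with the lowest value. Longer forms also stand in the 3′ UTR, where the ACGATGT copy reads ACGATGTA and a GAACG copy reads ATGAACG.
PTPN14 coding, chr1:214414664-214414686, minus strand: gggcgattACGATGTacattgga
PTPN14 coding, chr1:214369582-214369602, minus strand: gaagtttcGAACGgattctgt

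Genes with ACGATGT in the 3′ UTR had a median difference of 0.095 over the 3 lines, beside 0.004 for genes without, a shift of 0.091. The 7-mer was picked from the mean of the 3 lines, so its values by line are no separate check. In the order A704, HK2, CAKI-1 the shift was 0.058, 0.144 and 0.077. The 7-mer ranked highest of 14996 in HK2 and again in CAKI-1, and had rank 12 in A704. Of its 284 genes, 64 were higher with PTPN14-1 (22.5%) and 6 lower (2.11%), beside 5.10 and 6.26% of genes without it. Against control the shift was 0.023 with PTPN14-1 and -0.068 with PTPN14-2, and with LATS siRNA it was -0.006. The 64 genes with ACGATGTA shifted by 0.173 and the 72 genes with TACGATGT by 0.153. Where ACGATGT stood in the coding region and not in the 3′ UTR, the shift of 462 genes was 0.032.

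The 2478 genes with GAACG in the 3′ UTR had a median of -0.037, beside 0.016 without, a shift of -0.053. By line, in the same order, it was -0.039, -0.036 and -0.048. The shift was -0.048 for 1 copy, -0.059 for 2 copies and -0.093 for 3 or more. There were 292 genes lower with PTPN14-1 among them (11.8%) and 91 higher (3.67%), beside 4.61 and 6.04% of genes without. Against control the shift was -0.046 with PTPN14-1, 0.009 with PTPN14-2 and 0.010 with LATS siRNA. Among single 7-mers, GAACGGA was lowest over the 3 lines (206 genes, -0.102) and in HK2 (-0.160), and ATGAACG was lowest in CAKI-1 (258 genes, -0.108). In A704 they stood at -0.049 and -0.070, and GAACGGA ranked 963 from the lowest there. Where GAACGGA stood in the coding region and not in the 3′ UTR, the shift of 564 genes was -0.081.

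The 157 genes with the 7-mer and without the 5-mer had medians of 0.125, 0.200 and 0.151 in A704, HK2 and CAKI-1. The 2351 genes with GAACG alone had -0.032, -0.035 and -0.032, and the 8853 with neither had 0.008, 0.007 and 0.016. Base composition also moved with the differences. In 3 bins of genes by the GC content of the 3′ UTR, the median went from -0.048 to 0.066 in A704 and from -0.028 to 0.053 in CAKI-1, from low to high GC, and from 0.023 to -0.029 in HK2. Within these bins the ACGATGT shift was 0.098 to 0.128 and the GAACG shift -0.078 to -0.046. In 3 bins of 3′ UTR length they were 0.073 to 0.270 and -0.083 to -0.042. Of 2545 mature human microRNAs in RefSeq, 0 have a seed complementary to ACGATGT. The count was also 0 for GAACGGA and for the lowest 7-mer of CAKI-1. Whether either sequence matches a guide strand was not tested.

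**Figure D3:**
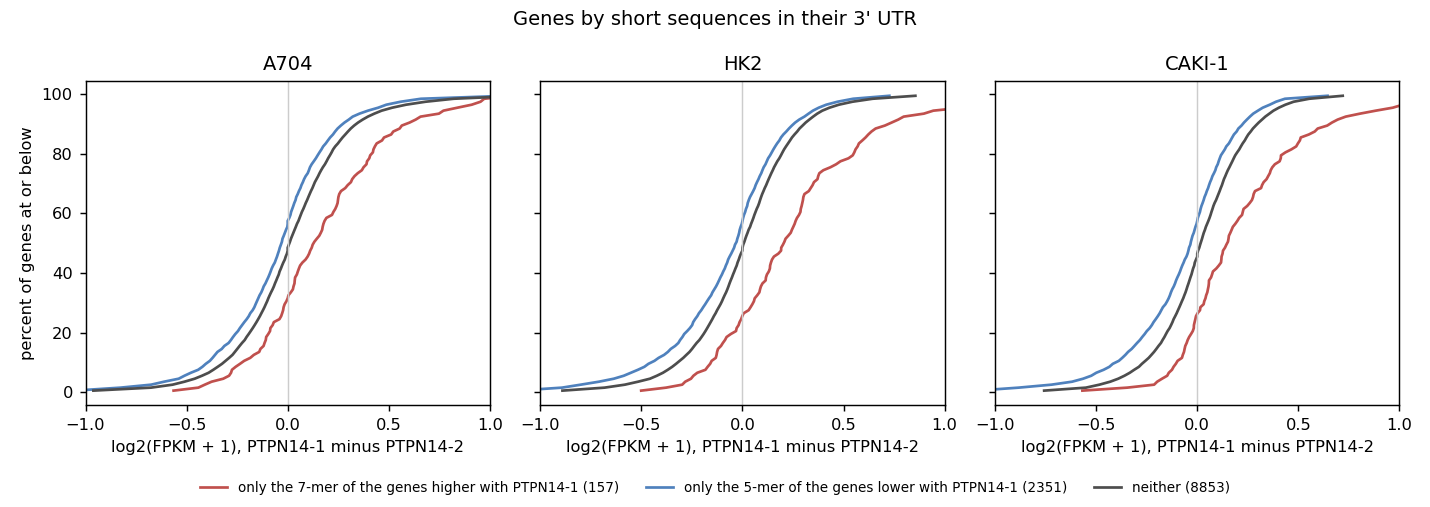
Cumulative percent of genes by their difference between the siRNAs (log2(FPKM + 1)), in A704, HK2 and CAKI-1. Red shows the 157 genes with only the 7-mer ACGATGT in the 3′ UTR, blue the 2351 genes with only the 5-mer GAACG and grey the 8853 genes with neither. The red curve lies to the right of grey and the blue curve to the left in each line.

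Gene lists were counted over symbols that stand on 1 line of the table. That leaves out 3 called members on several lines, namely IER3 of the ERK list (0.64, adjusted p = 0.00281), RPS9 of the ribosomal list (0.31, adjusted p = 0.0295) and PTPRK of the phosphatase list (-0.30, adjusted p = 0.0206).

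Targets of YAP1 and TAZ stood higher with PTPN14-1. Of 29 measured, 10 were higher (34.5%) and 1 lower (3.45%), beside 5.52 and 6.18% of all genes tested. The median was 0.22 beside 0.006 for all genes tested, and the lower one was PTPN14 itself. AMOTL2, an angiomotin that holds YAP1 at junctions, was at FPKM 82.7, 77.8 and 57.9 in A704, HK2 and CAKI-1 with PTPN14-1 and at 60.5, 53.7 and 36.8 with PTPN14-2. Controls were at 58.0, 49.4 and 29.2, and the difference was 0.54 (SE 0.09, adjusted p = 0.00199). NUAK2, a kinase of the AMPK family, had 12.2, 28.5 and 20.4 against 5.22, 20.3 and 11.1, a difference of 0.79 (SE 0.11, adjusted p = 7.29e-04). Against control, 10 of the 29 rose with PTPN14-1 and 1 with PTPN14-2, beside 2.39 and 0.448% of all genes tested. CTGF, the matricellular growth factor, was at 0.45 (SE 0.10) and 0.03 (SE 0.10) in those comparisons and differed by 0.42 (SE 0.10, adjusted p = 0.0200), with little difference in HK2 (0.08). The CTGF call ended without A704 PTPN14-2 or either CAKI-1 PTPN14 library, with adjusted p from 0.083 to 0.113. For the list, fits that left out A704, HK2 or CAKI-1 gave 7, 4 and 7 higher.

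Actin and focal adhesion genes, many of them under SRF, followed the same direction. Of 38 measured, 10 were higher (26.3%) and 1 lower (2.63%), beside 5.52 and 6.18% of all genes tested. The median was 0.21 and 32 estimates were above 0. ZYX, a focal adhesion protein, was at 48.78, 77.65 and 101 against 27.2, 45.1 and 62.6, a difference of 0.76 (SE 0.11, adjusted p = 0.00152). SRF itself differed by 0.48 (SE 0.08, adjusted p = 0.00269) and the crosslinker ACTN1 by 0.61 (SE 0.09). ACTA2, smooth muscle actin, was the lower one (-0.47, SE 0.13, adjusted p = 0.0304). The count higher was 6 without HK2 PTPN14-1 and 5 without CAKI-1 PTPN14-2, and 5, 5 and 4 without A704, HK2 and CAKI-1.

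Of 25 genes of ERK feedback and early response, 9 were likewise higher (36.0%) and 1 lower (4.0%). Over all genes tested these shares were 5.52 and 6.18%. The median was 0.25 and 18 estimates were above 0. DUSP6 (-0.13) and EGR1 (-0.24) were among the members with estimates below 0, and neither was called. DUSP5, a nuclear phosphatase of ERK, was at FPKM 6.79, 142.1 and 28.95 against 2.75, 80.8 and 18.3, a difference of 0.83 (SE 0.11, adjusted p = 4.75e-04). FOSL1, an AP-1 subunit, differed by 0.63 (SE 0.10, adjusted p = 0.00250) and EPHA2, an ephrin receptor induced by ERK, by 0.62 (SE 0.08). EPHA4, another ephrin receptor, was lower, at 1.57, 2.02 and 1.47 against 4.25, 4.43 and 3.30 (-0.89, SE 0.09, adjusted p = 1.26e-04). Its 3′ UTR holds 3 copies of GAACG, which stands in 21.6% of all 3′ UTRs and 41.3% of those of lower genes. The 9 became 5 without HK2 PTPN14-1, 2 without A704 and 5 without CAKI-1.

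Inflammatory and interferon genes had their largest median difference in A704. Of 27 NF-kB and cytokine genes, 9 were higher with PTPN14-1 (33.3%) and 0 lower, beside 5.52 and 6.18% of all genes tested. The medians of the lines were 0.82 (A704), 0.31 (HK2) and 0.13 (CAKI-1). Differences above 1.5-fold were held by 17 of the 27 (A704), 8 (HK2) and 2 (CAKI-1). TNFAIP3, the ubiquitin-editing inhibitor of NF-kB, was at 8.34, 8.31 and 6.94 with PTPN14-1 and 3.89, 4.73 and 4.51 with PTPN14-2 (0.72, SE 0.13, adjusted p = 0.00423). IL6, the cytokine, was at 15.4, 60.4 and 37.0 against 3.79, 31.4 and 19.6, with controls at 4.29, 38.3 and 43.7 (difference 1.2, SE 0.27, adjusted p = 0.0182). The count was 4 with A704 PTPN14-2 left out, 14 with CAKI-1 PTPN14-1 left out, and 3 and 0 when the A704 or HK2 line was.

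Interferon response genes numbered 39, of which 5 were higher (12.8%) and 0 lower, beside 5.52 and 6.18% of all genes tested. In A704, 38 of the 39 were above 0, 33 exceeded 1.5-fold and the median was 1.06. In HK2, 12 were above 0 and the median was -0.04, and in CAKI-1 26 were above 0 with a median of 0.14. ISG15, a ubiquitin-like protein, was at FPKM 330.8 with PTPN14-1, 80.2 with PTPN14-2 and 91.0 with control siRNA in A704. It was at 10.0, 6.67 and 9.65 in HK2 and at 6.96, 3.49 and 5.05 in CAKI-1, and its difference was 1.13 (SE 0.28, adjusted p = 0.0277). IFIT1, a binder of foreign RNA caps, was at 190.3 with PTPN14-1, 56.8 with PTPN14-2 and 69.3 with control siRNA in A704, and at most 4.45 in these libraries of the other lines. The RNA sensor DDX58, known as RIG-I, differed by 1.42 in A704 but 0.47 and 0.51 in HK2 and CAKI-1 (over the lines 0.80, SE 0.17, adjusted p = 0.0134).

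The summed FPKM of the 39 genes in A704 was 2850 with control siRNA, 5840 with PTPN14-1, 2870 with PTPN14-2 and 4820 with LATS siRNA. In HK2 it was 325, 314, 417 and 379, and in CAKI-1 590, 632, 688 and 603. The sums were thus lower in HK2 and CAKI-1, and log2(FPKM + 1) understates changes of low genes. In A704 the LATS library as well as the PTPN14-1 library thus stood above control. RNA integrity was 10 for these libraries and 9.6 for the A704 control. There is 1 library per siRNA and line, so the difference between lines was not tested. With A704 PTPN14-2 left out 2 were called higher, and with HK2 PTPN14-1 left out 10. The count was 3 with CAKI-1 PTPN14-2 left out and 3 with equal totals. Without the A704, HK2 or CAKI-1 line 4, 6 and 0 were higher, and 2, 0 and 0 were lower.

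**Figure D4:**
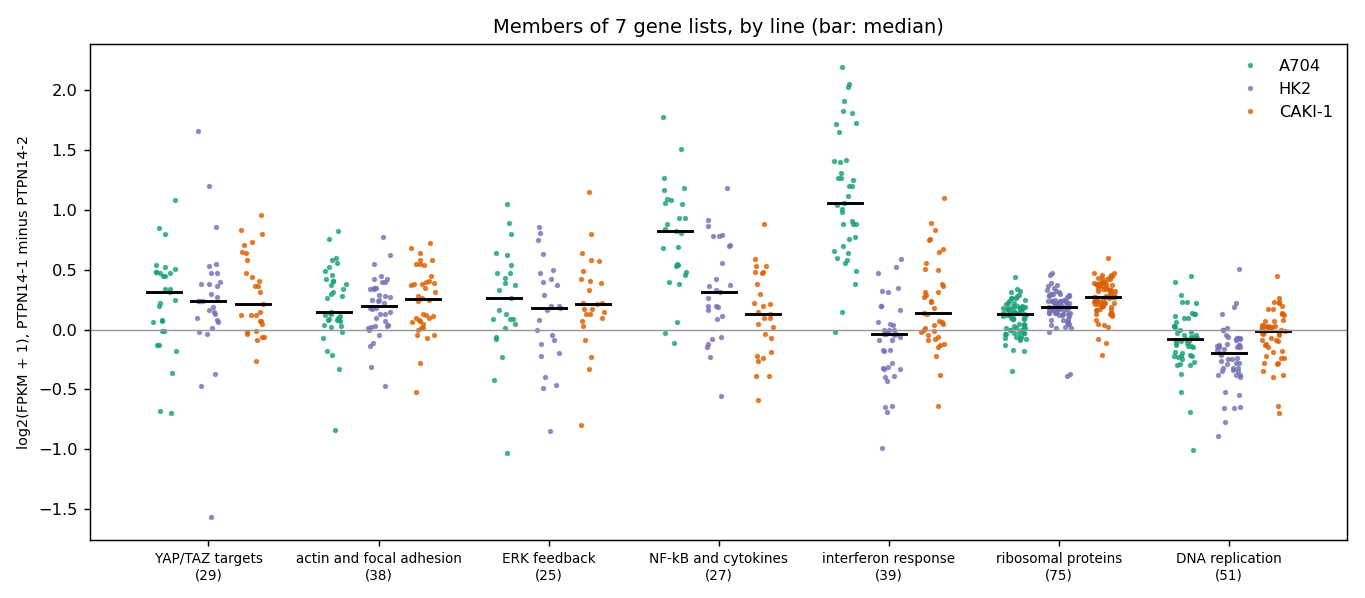
Difference between the siRNAs (log2(FPKM + 1), PTPN14-1 minus PTPN14-2) for each measured member of 7 gene lists, by line, with the median as a black bar. Interferon genes have a median of 1.06 in A704 and -0.04 in HK2, and ribosomal protein genes lie at 0.13, 0.19 and 0.27 in A704, HK2 and CAKI-1.

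Of 51 DNA replication genes, 7 were lower with PTPN14-1 (13.7%) and 1 was higher (1.96%), beside 6.18 and 5.52% of all genes tested, with a median of -0.11. The lines were unequal, with medians of -0.08, -0.20 and -0.01 in A704, HK2 and CAKI-1 and 16, 5 and 23 of the 51 above 0. DUT, the dUTPase that keeps uracil out of DNA, was at FPKM 6.75, 6.73 and 12.3 against 11.5, 11.2 and 20.5, with controls at 11.8, 13.2 and 22.7 (-0.68, SE 0.07, adjusted p = 1.43e-04). E2F8, an atypical E2F repressor, differed by -0.85 (SE 0.13, adjusted p = 0.00150) and GINS2, of the replicative helicase, by -0.35 (SE 0.07, adjusted p = 0.00719). E2F7 was higher by 0.47. None of these 7 lower genes holds GAACG in the 3′ UTR, beside 21.6% of all 3′ UTRs and 41.3% of all lower genes with a 3′ UTR. With so few genes this is a description and was not tested. Leaving out A704 PTPN14-1 or HK2 PTPN14-2 left 4 lower, and leaving out HK2 PTPN14-1 or CAKI-1 PTPN14-2 left 3. Without the A704, HK2 or CAKI-1 line 2, 1 and 2 were lower. Of 39 mitosis genes 3 were lower (7.69%) and 1 higher (2.56%), near the 6.18 and 5.52% of all genes, and the 3 became 0 without HK2 PTPN14-2, 6 without HK2 LATS and 5 without CAKI-1 LATS.

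Of 48 nucleotide synthesis and salvage genes, 4 were higher (8.33%) and 6 lower (12.5%), beside 5.52 and 6.18% of all genes tested. HPRT1 had the largest difference of the higher genes and PRPS1, which makes the ribose phosphate used for nucleotides, was lower by -0.36 (SE 0.07, adjusted p = 0.00798). The count lower was 2 without CAKI-1 PTPN14-2 and 3 without A704 PTPN14-2 or either HK2 PTPN14 library.

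Cytosolic ribosomal protein genes were a little higher. Of 75, 11 were called higher (14.7%) and 0 lower, beside 5.52 and 6.18% of all genes tested. Estimates were above 0 for 72, and the median was 0.19. RPL38 differed by 0.37 (SE 0.07, adjusted p = 0.00776). Leaving out the PTPN14-1 library of A704, HK2 or CAKI-1 left 6, 5 and 3 of them, leaving out that of PTPN14-2 in HK2 or CAKI-1 left 2 and 1, and leaving out A704 LATS gave 20. Without the A704, HK2 or CAKI-1 line the count higher was 10, 0 and 0. With equal totals it was 9 higher and 2 lower, and with quantile normalisation 6 higher and 2 lower.

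The CTLH ubiquitin ligase had 3 of its 11 subunit genes lower with PTPN14-1 (27.3%) and 0 higher. Over all genes tested these shares were 6.18 and 5.52%. These were RMND5A, its partner RING protein MAEA (-0.82, SE 0.13, adjusted p = 0.00198) and RMND5B (-0.54, SE 0.12, adjusted p = 0.0141). MAEA was at FPKM 17.5, 13.9 and 10.3 against 24.8, 32.6 and 18.9, with controls at 25.4, 34.0 and 20.7. All 3 fell with PTPN14-1 against control. All 3 hold GAACG in the 3′ UTR, as do 21.6% of all genes and 41.3% of all lower genes with a 3′ UTR. Without HK2, 1 of them was called.

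Of 59 endosome and lysosome transport genes, 4 were higher (6.78%, near the 5.52% of all genes) and 7 lower (11.9%, beside 6.18%). Beside AP3M1, the lower VPS26B, a subunit of retromer, was at 6.21, 1.52 and 5.61 against 11.8, 2.63 and 11.5 (-0.76, SE 0.09, adjusted p = 3.79e-04). Of the 7 lower genes, 4 hold GAACG, as do 41.3% of all lower genes with a 3′ UTR. The 7 became 3 without A704 PTPN14-2 or either HK2 PTPN14 library, and 2 without either CAKI-1 PTPN14 library. Lysosomal sulfatase and hydrolase genes stood near the shares of all genes, with 2 of 35 higher (5.71%) and 3 lower (8.57%). SUMF1, LIPA and SUMF2 were lower, and GLA, alpha-galactosidase, was higher by 0.54 (SE 0.09, adjusted p = 0.00233) with CTSB. SUMF1's relative SUMF2 was lower by -0.34 (SE 0.09, adjusted p = 0.0353).

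Genes of RNA interference and deadenylation likewise stood near those shares, with 2 of 30 higher (6.67%) and 3 lower (10.0%). CNOT6 and XPO5 were higher and PAN2, DROSHA and TNRC6B were lower. CNOT6, a deadenylase of the CCR4-NOT complex, fell with PTPN14-2 (-0.65, SE 0.08, adjusted p = 0.00107), at FPKM 8.45, 5.22 and 7.99 beside 12.9, 9.76 and 12.6 in the controls. DROSHA, the nuclease that cuts microRNA hairpins, fell with PTPN14-1 (-0.53, SE 0.10, adjusted p = 0.0117). Among 32 genes of endoplasmic reticulum stress and the integrated stress response, 6 were higher (18.8%) and 1 was lower (3.12%). Over all genes tested these shares were 5.52 and 6.18%. PPP1R15A, a phosphatase subunit that ends the integrated stress response, differed by 0.55 (SE 0.09, adjusted p = 0.00265), and CALR, the chaperone calreticulin, by -0.83 (SE 0.13, adjusted p = 0.00152). Those 6 became 2 or 3 without A704 PTPN14-1, or without the PTPN14-2 library of any 1 line.

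**Figure D5:**
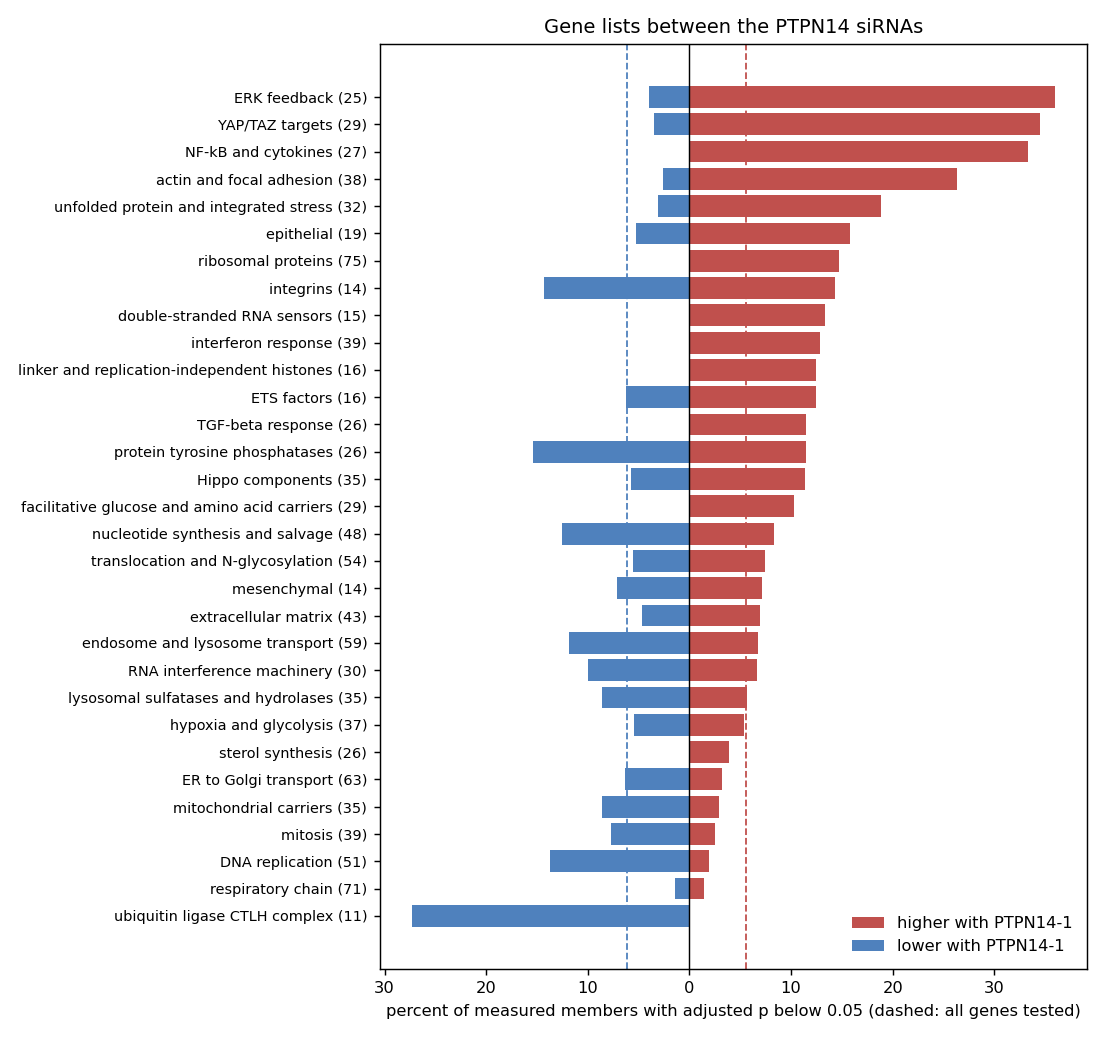
Percent of measured members of each gene list (number measured in brackets, lists of at least 10, with 1 left out) that were higher (red) or lower (blue) with PTPN14-1 than with PTPN14-2. Dashed lines give the 5.52 and 6.18% of all genes tested, and ERK feedback, YAP/TAZ, NF-kB and actin genes reach furthest to the right.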

How the data were processed

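PolyA RNA-seq of 12 libraries (3 lines, 4 siRNAs) was used. Expression was deposited as 1 FPKM table with a line per gene symbol. Its unit is read from the values, as no header names it. Per the submitters' processing notes the aligner was STAR 2.4.0g1 and the build GRCh38.p1. What counted the genes, and on which annotation, is not given in the sources used here. It has 20979 entries, of which 29 carry dates in place of symbols and are named nowhere, and 695 symbols stand on more than 1 line. Effective depth, 16.95 to 23.3 M reads, was estimated from whole-read steps in low values of single-exon genes and is approximate.

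Values were analysed as log2(FPKM + 1), which understates changes of low genes. Genes that exceeded FPKM 1 in 3 or more libraries, 12276 in all, entered a limma 3.58.1 model run under R 4.3.3 (trend, robust moderation with statmod 1.5.0) with 4 siRNAs and the cell line as a block. All 12 libraries share 1 spread, with 6 residual degrees of freedom. Libraries pair because they are the same cell line. Adjusted p-values are Benjamini-Hochberg over all genes tested, at 0.05. The planned test allowed for counts, which the table does not hold. On simulated sets of 12276 genes with 200 changed, 24.8% of 1.25-fold, 78.2% of 1.5-fold and 96.8% of 2-fold differences were recovered, and 4.46% of calls were false. The simulated noise was independent between genes, and each change was the same in all 3 lines. These shares may thus not hold for the calls made here.

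Named genes are PTPN14, YAP1, WWTR1, LATS1 and LATS2, the 15 largest differences in each direction with mean FPKM above 1 and 1 sign in all 3 lines, the called members of each list with the lowest p (at most 4), and the 5 called genes of opposite sign in 2 lines with the largest spread. The comparison, gene lists and rules were chosen with earlier results of these data known. The 3′ UTR sequences, list counts under each setting and the principal transcript alternative were chosen after seeing the data. Gene positions come from GENCODE 29. Alternatives covered the pseudocount, filters, scaling, moderation, libraries fitted and the cell line block. Results for some genes and 1 gene list are not reported here.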

Additional observations from a re-analysis of the deposited data

Results flagged for a closer look

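Of the 1437 genes called between the siRNAs, 7 had opposite signs in 2 lines, and the 5 with the widest spread are given. Each line has 1 library per siRNA, so the difference between lines was not tested. All 5 lost their call in some fit that left out 1 library. For CDH6, STC1 and TSPAN12 this included fits that left out a LATS or control library. CDH6, a cadherin of kidney epithelium, was at -1.10 in CAKI-1 and -0.90 in HK2 but at 0.18 in A704. STC1, a secreted glycoprotein, was at -1.15 in A704 and -0.73 in CAKI-1. In HK2 it was at 0.01, where its FPKM was 0.01 with PTPN14-1 and listed at 0 with PTPN14-2. GLDC, a glycine-cleaving enzyme, was at -0.98 in HK2, -0.77 in A704 and 0.05 in CAKI-1, where its FPKM was at most 0.10 with either siRNA. CXADR, an adhesion protein of tight junctions, was at -0.90 in A704 and -0.77 in HK2. In CAKI-1 it was at 0.01, with FPKM at most 0.04. TSPAN12, a tetraspanin, was at -0.71 in A704 and -0.44 in HK2. In CAKI-1 it was at 0.02, with FPKM 4.39 and 4.33.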

How the results depend on the processing

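Without the replicate block of cell line, limma called 0 genes (119 at an unadjusted p below 0.05, 0 higher and 0 lower), and PTPN14 kept -0.44 with an adjusted p of 1. In the 6 PTPN14 libraries alone, with the block, 715 genes were called, 321 higher and 394 lower, and PTPN14 was at -0.44 (adjusted p = 0.0539). Without a filter on low values 1011 were called, 451 higher, and PTPN14 was at -0.44 (adjusted p = 0.0564). Leaving out 1 library or 1 line gave 319 to 1638 genes, 124 to 788 higher and 195 to 850 lower, and PTPN14 from -0.53 to -0.31 (adjusted p up to 0.211, without the A704 line). Without PTPN14-2 of A704, HK2 or CAKI-1 the counts were 839, 833 and 742, with 375, 369 and 320 higher and 464, 464 and 422 lower. Without HK2 PTPN14-1 there were 876, 379 higher and 497 lower. Without the A704 line there were 566, 248 higher and 318 lower, and without CAKI-1 503, 228 higher and 275 lower. PTPN14 lost its call without PTPN14-2 of A704 (-0.37) or HK2 (-0.40), PTPN14-1 of A704 (-0.33) or CAKI-1 (-0.45), and without the HK2 (-0.47) or CAKI-1 (-0.52) line. The cause of these changes was not tested, except that leaving out libraries leaves fewer to fit. Scaling, pseudocounts and moderation kept the count within 1366 to 1496. Of 133 called genes that the naming rule took, 79 were called whichever 1 library was left out, and 0 changed sign in any alternative. Over the alternatives the ACGATGT shift was 0.074 to 0.119 and the GAACG shift -0.064 to -0.045. Calls for single lists rest on few members and often on 1 library. Depth is estimated, gene lengths are not given, and FPKM keeps no counting error. Only differences near 1.5-fold or more were recovered for most genes simulated.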

Other observations

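Several lists stood near or below the 5.52% higher and 6.18% lower of all genes tested. The shares were 1.41 and 1.41% for the respiratory chain and 3.85 and 0% for sterol synthesis. For hypoxia and glycolysis they were 5.41 and 5.41%. Of 71 respiratory chain genes, SDHD, a membrane subunit of complex II, was higher by 0.56 (SE 0.11, limma adjusted p = 0.00684) and ATP5F1 was lower by -0.30 (SE 0.08, adjusted p = 0.0298). Of 26 sterol synthesis genes, MSMO1 was higher by 0.53 (SE 0.09, adjusted p = 0.00268) and 0 were lower. Against control 8 of the 26 rose with PTPN14-1 and 2 with PTPN14-2, beside 2.39 and 0.448% of all genes tested. Both comparisons share the control libraries, and the median difference of the list between the siRNAs was 0.01. MSMO1 holds ACGATGT in the 3′ UTR, as do 2.47% of all 3′ UTRs. Against control MSMO1 was at 0.51 with PTPN14-1 and -0.02 with PTPN14-2. Among 37 hypoxia and glycolysis genes, SLC2A3 and NDRG1 were higher and BNIP3L and EPAS1 lower. EPAS1, which encodes HIF-2 alpha, was at FPKM 20.8, 43.4 and 20.9 in A704, HK2 and CAKI-1 with PTPN14-1 and 25.8, 92.3 and 27.0 with PTPN14-2 (-0.57, SE 0.14, adjusted p = 0.0192).

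H1FX, a linker histone, was low with PTPN14-2 in every line. Its FPKM was 2.17, 2.90 and 4.29 in A704, HK2 and CAKI-1, beside 5.15, 6.37 and 9.66 with PTPN14-1 and 5.25, 13.3 and 14.4 with control siRNA. The difference between the siRNAs was 0.96 (SE 0.14, adjusted p = 0.00146), and against control it fell with PTPN14-2 by -1.46 (SE 0.14, adjusted p = 5.19e-04). It also holds ACGATGT in the 3′ UTR, as do 2.47% of all 3′ UTRs and 10.1% of all higher genes with a 3′ UTR. Upstream Hippo genes included FRMD6, a FERM-domain protein (1.00, SE 0.16, adjusted p = 0.00231), and MOB1B, the LATS cofactor (0.73, SE 0.12, adjusted p = 0.00245), both higher with PTPN14-1. WWC3, a scaffold related to KIBRA, was lower (-0.61, SE 0.10, adjusted p = 0.00242). Of 26 protein tyrosine phosphatase genes, 3 were higher (11.5%) and 4 lower (15.4%), PTPN14 included, beside 5.52 and 6.18% of all genes tested. With any 1 line left out, 0 of the lower were called.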
